A study of Mus musculus with 6 samples.

Results

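The genes described here encode the cytokines IL-10, IL-12, IL-23, IL-27 and IL-15 or their subunits, and the IL-10 receptor. They are 9 of the 21958 genes in the deposited table, matched by symbol to a list of members: Il10, Il10ra, Il10rb, Il12a, Il12b, Il23a, Il27, Ebi3 and Il15. The sequenced RNA came from RAW264.7, an established line of mouse macrophages transformed by a leukaemia virus. In all 6 libraries the cells had been given lipopolysaccharide (LPS), the bacterial outer membrane component that activates macrophages through TLR4. In 3 of them this was the only treatment (LPS alone), and in the other 3 BMSCs were added (co-culture), a name commonly used for stromal cells of the bone marrow. The labels call the replicates biological, but do not say whether they were separate cultures, so p-values measure the spread between these libraries. They do not give the LPS dose, the time, the species of the BMSCs, whether the cells touched, or a group without LPS. The title of LPS replicate 3 writes RAW264.9 where its cell line tag has RAW264.7. The series asks whether BMSCs with the growth factor bFGF change the inflammatory response of these cells, and the sample labels name BMSCs only.

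IL-10 is a homodimer that restrains macrophage activation. It binds a receptor made of the chains encoded by Il10ra and Il10rb, which signals through JAK1, TYK2 and STAT3 and lowers the output of inflammatory cytokines, IL-12 among them. The IL-12 family shares subunits. The p40 chain (Il12b) pairs with p35 (Il12a) to make IL-12, which drives interferon-gamma production by T and NK cells, and with p19 (Il23a) to make IL-23, which sustains IL-17-producing T cells. EBI3 (Ebi3) pairs with p28 (Il27) to make IL-27, which can both promote and restrain T cells. IL-15 (Il15) keeps NK cells and memory CD8 T cells alive, and is mostly presented on the alpha chain of its receptor.

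With co-culture the 2 chains of IL-23 were higher, the p35 chain of IL-12 had no reads in any library, and Il10 was lower while the genes for its receptor chains were higher. Of the 9 genes, 8 had enough counts to be tested, Il23a only in its co-culture libraries. In edgeR's quasi-likelihood test 7 were higher and 1 was lower in co-culture at an adjusted p of 0.05, of which Il27 and Ebi3 turned lower and Il15 lost its call after the length and GC correction described below. Over the 11103 genes tested, 37.5% were called higher and 38% lower, so 75.5% of all genes passed in one direction or the other, and a call in itself does not set these genes apart. The groups did not overlap for any of the 8 tested genes, as for 80.2% of all tested genes. The median log2 fold change was 0.59 over the 8 genes and 0.001 over all tested genes. With library totals in place of TMM scaling, the median of all tested genes moved to -0.18, 38.3% rather than 49.6% of calls were higher, and 6 of the 8 genes were called higher and 1 lower. In bulk RNA, fewer cells of a type and less RNA per cell cannot be told apart. Unless a sentence says otherwise, levels per library below are in CPM, counts for each 1000000 counted, after TMM scaling. That scaling sets library sizes on the assumption that most genes do not shift. With 75.5% of tested genes called, the assumption may not hold here.

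**Figure D1:**
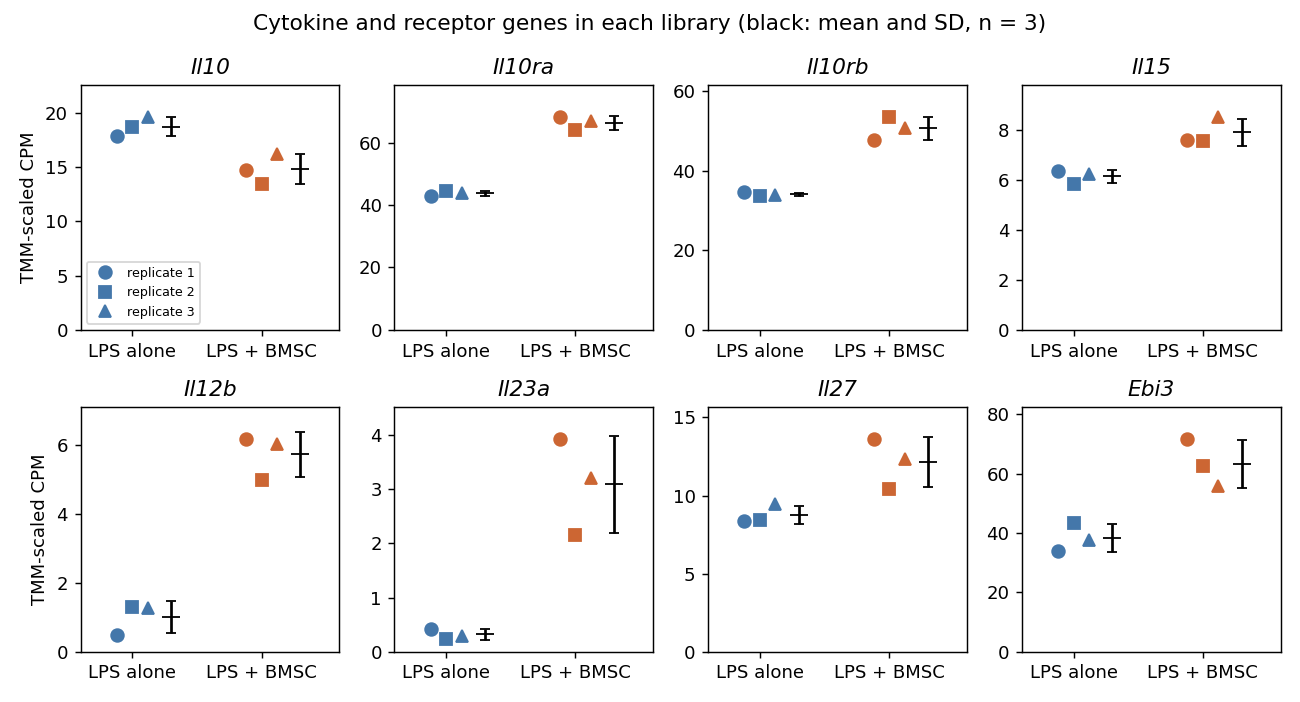
TMM-scaled CPM (y axes, starting at 0) of 8 genes in each of the 3 libraries with LPS alone (blue) and the 3 with LPS and BMSC co-culture (orange). Shapes mark replicate numbers, and black marks the mean and SD. Il10 is lower in each co-culture library than in each LPS library, and the other 7 genes are higher, Il23a most (3.09 against 0.318 CPM), although Il27 and Ebi3 turn lower, and Il15 loses its call, after a correction for gene length and GC content.

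Total counts per library ranged from 17716460 to 22539884, so that 3 counts, the floor taken for detection, stood at 0.133 to 0.169 CPM before scaling. Pairs of co-culture replicates lay further apart, at a chi-square of 5.16 to 26.8 for each degree of freedom, than pairs of LPS replicates, at 1.71 to 2.11. Of 10 macrophage markers, 9 were tested, 5 higher and 1 lower in co-culture (summed 16638 to 17061 CPM with LPS alone and 25806 to 28605 CPM in co-culture), and the receptor gene Csf1r was at 725 to 773 CPM in all libraries. Lyz2 made up most of that sum (means of 10960 and 17941 CPM), and the marker called lower was Ptprc (305 against 160 CPM). Over all tested genes, 37.5% were called higher and 38% lower. After the length and GC correction described below, 4 of these macrophage markers were called higher and 1 lower. Cd68 then turned from a log2 fold change of 0.56 to -0.26, and Ptprc lost its call (-0.93 to 0.02). Of 14 stromal markers, 6 had no reads in any library (Col1a2, Col3a1, Col6a1, Thy1, Postn and Cxcl12). The summed level of the stromal list was 12.5 to 14.2 CPM with LPS alone and 19.2 to 22.3 CPM in co-culture, most of it from Acta2, which was called higher; Lum was called lower. Of 10 lymphocyte markers, 7 had no reads and none was tested (summed 0.251 to 0.381 against 0.256 to 0.398 CPM). Of 7 dendritic cell markers, Siglech had no reads, Ccr7 was higher and Itgax lower (summed 71.6 to 74.9 against 30.1 to 31.4 CPM). Itgax made up most of that sum (means of 70.7 and 26.7 CPM), and Xcr1 and Zbtb46 did not pass. Whether these markers have a part in the results below was not tested.

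Il12b (ENSMUSG00000004296, chromosome 11 from 44400063 to 44414033 on the plus strand of GRCm38) encodes p40. It had 9, 27 and 30 counts in LPS replicates 1, 2 and 3, and 124, 97 and 113 in co-culture replicates 1, 2 and 3. Scaled, these were 0.477, 1.28 and 1.25 CPM against 6.17, 4.97 and 6.02 CPM. LPS replicate 1 was the lowest, and every co-culture library lay above every LPS library. The mean was 1.00 ± 0.457 CPM with LPS alone and 5.72 ± 0.658 CPM in co-culture (SD, n = 3 each), a 5.53-fold rise (log2 fold change 2.47, SE 0.25, adjusted p 1.38e-05 by edgeR). Of all tested genes, 0.982% had a higher log2 fold change. Without LPS replicate 1 its log2 fold change was 2.16.

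Il23a (ENSMUSG00000025383, chromosome 10 from 128296139 to 128298752 on the minus strand) encodes p19, the chain that only IL-23 contains. Its counts were 8, 5 and 7 with LPS alone, and 79, 42 and 60 in co-culture. These were 0.424, 0.238 and 0.292 CPM against 3.93, 2.15 and 3.20 CPM, so the lowest co-culture library stood well above the highest LPS library. Co-culture replicate 2 was the lowest of its group. The mean went from 0.318 ± 0.0959 to 3.09 ± 0.896 CPM (SD, n = 3 each), a 9.7-fold rise and the largest among the 8 tested genes (log2 3.28, SE 0.34, adjusted p 1.44e-05 by edgeR). Only 0.459% of tested genes had a higher log2 fold change. With so few reads under LPS alone, the size of the rise is less certain than its direction. Il23a passed the default filter for testing only through its co-culture libraries, where it was high. Its p-value and rank are therefore a description and not separate support.

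Il12a (ENSMUSG00000027776, chromosome 3 from 68690644 to 68698547 on the plus strand) encodes p35. It had 0 counts in all 6 libraries, out of 122135282 counts in all. A count of 0 allows up to 3 counts, or 0.0246 CPM over the 6 libraries together, and 0.133 to 0.169 CPM in a single library. No fold change was computed. At this depth transcripts for p40 and p19 were detected in every library and none for p35, so mRNA was measured for both chains of IL-23 but for just 1 chain of IL-12.

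Promoters of Il12b, Il12a and Ebi3 are shown because these were the only members for which a window was found. RefSeq windows (GRCm38.p6), each of 300 bases, from 250 before the start site, were found for 3 of the 9 genes, all on the plus strand. Capitals mark matches to 1 of 6 motifs searched on both strands, which were the kappa-B type (GGG and CC with 5 bases of any kind between), the ISRE type (GAAA and GAAA with 2 bases of any kind between), TGACGTCA (CRE), TGANTCA (AP-1), TTNNGNAA (C/EBP type) and GGAAGT (ETS type).
Il12b, chr11:44399813-44400112: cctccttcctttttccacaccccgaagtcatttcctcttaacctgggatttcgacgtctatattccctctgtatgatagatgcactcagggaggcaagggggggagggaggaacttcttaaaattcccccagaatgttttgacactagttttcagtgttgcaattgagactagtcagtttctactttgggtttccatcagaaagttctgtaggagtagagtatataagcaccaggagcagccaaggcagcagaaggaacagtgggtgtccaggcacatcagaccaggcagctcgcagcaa
Ebi3, chr17:55952373-55952672: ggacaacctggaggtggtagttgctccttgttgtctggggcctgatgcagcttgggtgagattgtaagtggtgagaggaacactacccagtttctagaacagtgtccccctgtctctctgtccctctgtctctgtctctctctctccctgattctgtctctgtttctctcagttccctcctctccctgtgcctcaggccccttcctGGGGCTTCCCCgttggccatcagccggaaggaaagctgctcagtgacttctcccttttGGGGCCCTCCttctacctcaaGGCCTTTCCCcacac
Il12a, upstream start, chr3:68690394-68690693: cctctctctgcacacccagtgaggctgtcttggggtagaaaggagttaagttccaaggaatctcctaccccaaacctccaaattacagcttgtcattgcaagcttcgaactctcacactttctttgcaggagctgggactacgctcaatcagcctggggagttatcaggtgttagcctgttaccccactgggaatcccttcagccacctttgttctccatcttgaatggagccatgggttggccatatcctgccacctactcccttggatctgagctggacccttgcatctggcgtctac
Il12a, downstream start, chr3:68691174-68691473: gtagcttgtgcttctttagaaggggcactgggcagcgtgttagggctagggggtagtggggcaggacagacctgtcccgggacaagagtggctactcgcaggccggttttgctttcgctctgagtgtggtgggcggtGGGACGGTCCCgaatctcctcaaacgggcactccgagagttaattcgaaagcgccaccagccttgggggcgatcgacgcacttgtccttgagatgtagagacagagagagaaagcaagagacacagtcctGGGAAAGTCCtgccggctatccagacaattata
The Il12b window and the upstream Il12a window held no match to these letters. Sites that depart from these letters were not searched for, so the lack of a match does not mean that a binding site is absent. In the Ebi3 window the kappa-B type letters matched in 3 stretches, the first of them, GGGGCTTCCCC, beginning 44 bases before the start site and holding overlapping matches on both strands. The downstream Il12a window had such a match at 113 bases before the start, overlapping another on the other strand, and a further one after the start. These letters are common: 50.8% of 32851 promoter windows held a kappa-B type match, against 40.7% for the C/EBP type, 23.8% for the ETS type, 7.81% for AP-1, 3.44% for the ISRE type and 1.79% for CRE. The matches describe sequence only.

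Ebi3 (ENSMUSG00000003206, chromosome 17 from 55952640 to 55957022 on the plus strand) had the highest level per gene length of the 9 genes. It stood at 34.1, 43.5 and 37.6 CPM with LPS alone and at 71.8, 62.5 and 55.6 CPM in co-culture, with no overlap between the groups. The mean rose from 38.4 ± 4.76 to 63.3 ± 8.08 CPM (SD, n = 3 each), 1.65-fold (log2 0.72, SE 0.11, adjusted p 0.000202 by edgeR). Fold changes in this table followed the length and GC content of genes. After a correction for that trend the direction turned, to a log2 fold change of -0.24 (adjusted p 0.0123 by edgeR). An annotated antisense gene, Gm16712, overlaps Ebi3, and the strand setting of the counting is unknown here.

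Il27 (ENSMUSG00000044701, chromosome 7 from 126589010 to 126594941 on the minus strand), for the p28 chain, was at 8.38, 8.42 and 9.44 CPM with LPS alone and at 13.6, 10.4 and 12.3 CPM in co-culture. The lowest co-culture library, replicate 2, was close to the highest LPS library, replicate 3. Its mean was 8.75 ± 0.599 against 12.1 ± 1.61 CPM (SD, n = 3 each), 1.38-fold higher (log2 0.47, SE 0.12, adjusted p 0.00481 by edgeR). After the length and GC correction Il27 too turned, to -0.55 (adjusted p 0.000762). The protein-coding gene Apobr overlaps it on the other strand.

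The length and GC trend was a property of the whole table. The 2768 tested genes with the shortest length in the table, 255 to 2853 bases, had a median log2 fold change of 0.52, and the 2768 longest had -0.51. The 2768 with the highest GC content had a median of 0.39 and the 2768 with the lowest -0.46. Il27 has a length of 1021 bases and 56.2% GC, and Ebi3 1154 bases and 57.4% GC, so both belong to the shortest and to the most GC-rich of these groups. Removing the trend took 1.02 from the log2 fold change of Il27 and 0.96 from that of Ebi3, more than their whole rise, and left 2.19 for Il12b and 2.86 for Il23a. Over the 8 tested genes it left 4 called higher (Il12b, Il23a, Il10ra and Il10rb), 3 lower (Il10, Il27 and Ebi3) and Il15 without a call. The direction for both IL-27 chains thus rests on whether that trend is kept in the values.

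**Figure D2:**
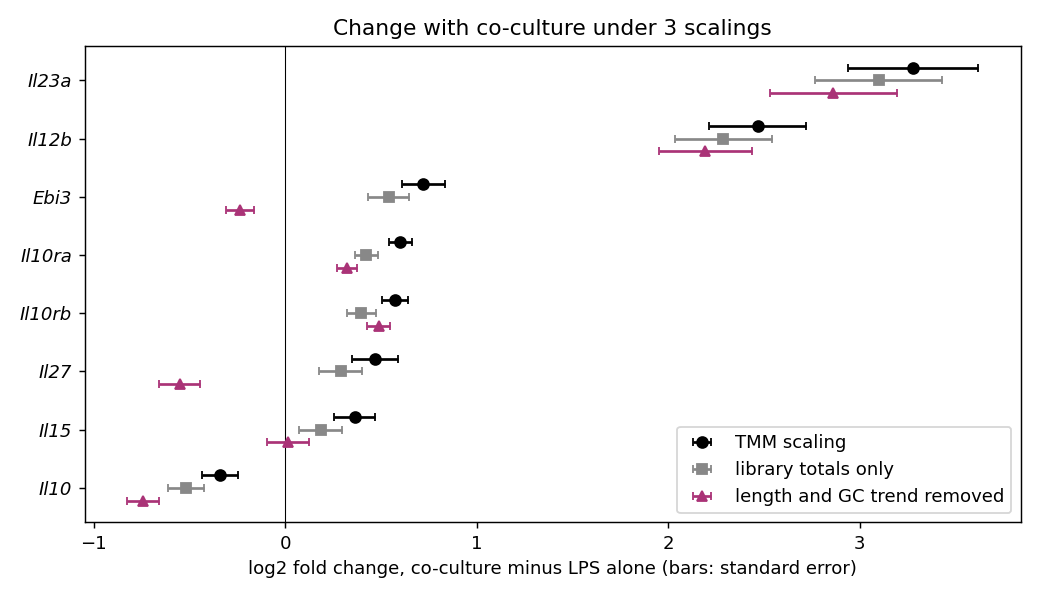
Log2 fold change of co-culture against LPS alone (x axis) for 8 genes with TMM scaling (black circles), library totals only (grey squares) and the length and GC trend removed (purple triangles), each with its standard error. Il23a and Il12b stay above 2, Il10 stays below 0, and Ebi3 and Il27 change side when the trend is removed.

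Within a library, scaling drops out of a ratio between genes. Per kilobase, Il27 stood at 0.278, 0.219 and 0.284 of the Ebi3 level with LPS alone and at 0.215, 0.189 and 0.250 of it in co-culture. The groups overlapped, and the log2 ratio differed by -0.26 (exact two-sided permutation test, p 0.2, adjusted p 0.2 over 2 ratios). Per kilobase, Ebi3 stood above Il27 in every library. Il23a stood at 0.778, 0.162 and 0.204 of the Il12b level with LPS alone and at 0.558, 0.379 and 0.465 in co-culture. This ratio was not tested, as the counts under LPS alone were below 10, and the groups overlapped.

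Il10 (ENSMUSG00000016529, chromosome 1 from 131019845 to 131024974 on the plus strand) moved the other way. It was at 17.9, 18.7 and 19.6 CPM with LPS alone and at 14.7, 13.5 and 16.2 CPM in co-culture. Each co-culture library lay below each LPS library, replicate 3 by the least. The mean fell from 18.7 ± 0.875 to 14.8 ± 1.37 CPM (SD, n = 3 each), 1.27-fold lower, with a log2 fold change of -0.34 (SE 0.09, adjusted p 0.007 by edgeR). It was -0.52 with library totals and -0.74 after the length and GC correction. Of all tested genes, 33.6% had a lower log2 fold change, so the fall of Il10 was modest within this comparison.

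The chains of the IL-10 receptor rose by like amounts. Il10ra (ENSMUSG00000032089, chromosome 9 from 45253837 to 45269149 on the minus strand), the chain that binds IL-10 with high affinity, was at 42.9, 44.5 and 43.8 CPM with LPS alone and at 68.2, 63.9 and 66.8 CPM in co-culture. It rose 1.52-fold, from 43.7 ± 0.811 to 66.3 ± 2.21 CPM (SD, n = 3 each; log2 0.60, SE 0.06, adjusted p 1.07e-05 by edgeR). Il10rb (ENSMUSG00000022969, chromosome 16 from 91406164 to 91425834 on the plus strand), a chain shared with the receptors of IL-22 and the lambda interferons, was at 34.6, 33.8 and 34.0 CPM with LPS alone. In co-culture it was at 47.9, 53.6 and 50.9 CPM. The LPS libraries lay closer together than the co-culture libraries for both genes, and the groups were well apart. Il10rb rose 1.49-fold, from 34.1 ± 0.416 to 50.8 ± 2.88 CPM (log2 0.57, SE 0.07, adjusted p 3.1e-05 by edgeR). After the length and GC correction the log2 fold changes were 0.32 for Il10ra and 0.49 for Il10rb, both still called higher. The annotation has another protein-coding gene, Gm21970, over Il10rb on the same strand, so part of its reads could belong to that model. A processed pseudogene, Gm20612, and the microRNA gene Mir7086 overlap Il10ra.

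Il10 and Il10ra thus moved in opposite directions. Per kilobase, Il10 was at 1.11, 1.12 and 1.20 times the Il10ra level with LPS alone and at 0.577, 0.563 and 0.647 times it in co-culture. Il10 exceeded Il10ra in every LPS library and was below it in every co-culture library. The log2 ratio differed by -0.94, a 1.92-fold change (exact two-sided permutation test, p 0.1, the smallest that 3 against 3 libraries allow, adjusted p 0.2 over 2 ratios). Against Il12b, whose output IL-10 is known to restrain, Il10 stood 56.2, 21.9 and 23.5 times as high per kilobase with LPS alone and 3.58, 4.07 and 4.04 times as high in co-culture. That ratio was not tested because Il12b had 9 counts in LPS replicate 1.

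Il15 (ENSMUSG00000031712, chromosome 8 from 82331632 to 82403222 on the minus strand) was at 6.37, 5.85 and 6.22 CPM with LPS alone and at 7.62, 7.58 and 8.53 CPM in co-culture, without overlap. The mean was 6.15 ± 0.266 against 7.91 ± 0.537 CPM (SD, n = 3 each), 1.29-fold higher (log2 0.36, SE 0.11, adjusted p 0.0111 by edgeR). The call was lost with library totals (log2 0.18, adjusted p 0.152), after the length and GC correction (0.01, adjusted p 0.911) and without LPS replicate 2 (0.32, adjusted p 0.0506).

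On the authors' FPKM values, which divide by gene length, the order of the genes shifted. With LPS alone it ran from Ebi3 (35.4 ± 4.41 FPKM, SD, n = 3) through Il10 (15.2 ± 0.699), Il10ra (13.3 ± 0.252), Il10rb (9.54 ± 0.115), Il27 (9.11 ± 0.614), Il15 (2.89 ± 0.123) and Il12b (0.543 ± 0.247) to Il23a (0.151 ± 0.0454). Ranges of neighbours overlapped only for Il10rb and Il27. In co-culture Ebi3 was again first (51.5 ± 5.49 FPKM), but Il10 dropped from the second place to the fifth (10.6 ± 1.02), behind Il10ra (17.8 ± 0.368), Il10rb (12.6 ± 0.987) and Il27 (11.2 ± 1.26). There the ranges of Il10rb and Il27, and of Il27 and Il10, overlapped. Il15 (3.29 ± 0.265), Il12b (2.73 ± 0.278) and Il23a (1.29 ± 0.348 FPKM) followed without overlap. Despite their rise, the IL-23 chains remained the least abundant of the 8 detected genes. Over the 6 libraries, 20.3% of tested genes had a lower mean FPKM than Il12b and 11.7% a lower one than Il23a, against 89.8% for Ebi3.

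**Figure D3:**
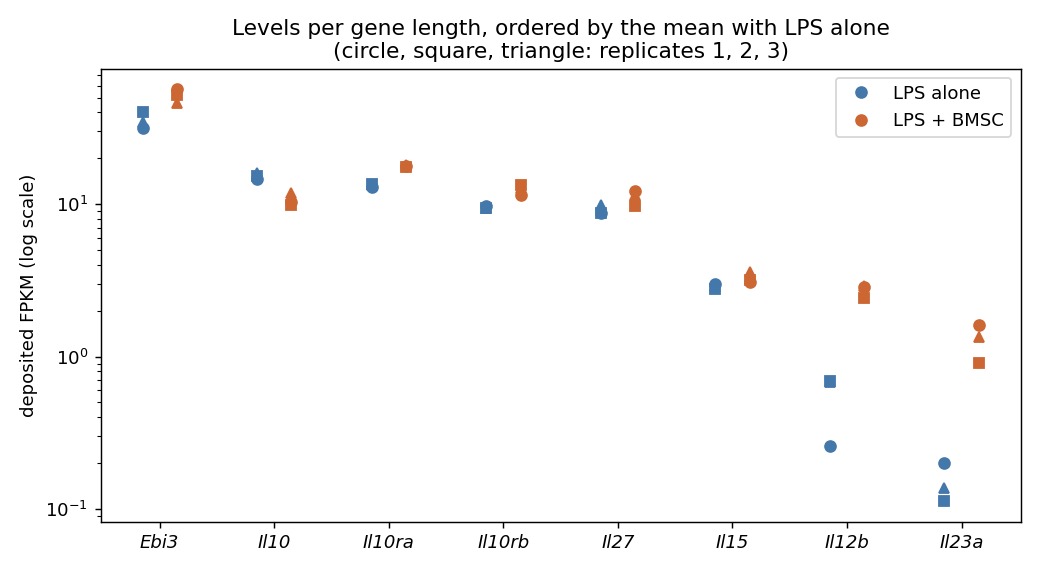
Deposited FPKM (y axis, log scale) of 8 genes in each library, ordered by the mean with LPS alone, which is shown in blue, with co-culture in orange and shapes for replicates. Il12a is not drawn because it was 0 in every library. Il12b and Il23a climb most but stay lowest in co-culture, at 2.73 and 1.29 FPKM, and Il10 falls to the range of Il27.

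Of 10 receptor genes for these cytokines, 6 were tested, of which 3 were higher, 2 lower and 1 did not pass. Over all tested genes, 37.5% were called higher and 38% lower. Besides the IL-10 receptor chains, Il2rg, the common gamma chain used by IL-15, rose 2.01-fold (28.2, 33.0 and 31.2 against 73.2, 58.1 and 54.4 CPM; log2 1.00, SE 0.11). Il6st, the gp130 chain that pairs with the IL-27 receptor and serves the IL-6 family, fell from 54.6, 50.3 and 52.9 to 20.9, 23.8 and 27.4 CPM (log2 -1.13, SE 0.10, adjusted p 4.57e-06 by edgeR). Il15ra, which presents IL-15, fell from 9.12, 9.32 and 9.81 to 4.48, 7.42 and 6.34 CPM (log2 -0.63, SE 0.16). So among the genes for IL-15 and its receptor, the ligand and the gamma chain were higher and the alpha chain was lower. Of these, Il15 lost its call with library totals and after the length and GC correction. Il12rb1, shared by the IL-12 and IL-23 receptors, was at 0.69 to 1.42 CPM with LPS alone and 1.05 to 1.38 CPM in co-culture and did not pass (log2 0.14, SE 0.29). The specific chains were at or near the floor: Il12rb2 had 1, 3 and 5 counts with LPS alone and 0, 2 and 0 in co-culture, Il23r at most 3 in any library, Il27ra 1 count in LPS replicate 2 and none elsewhere, and Il2rb 1 to 4 counts. At this depth, transcripts for the ligand-specific chains of the IL-12, IL-23 and IL-27 receptors were therefore barely detectable in either group.

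Of 9 JAK and STAT genes below these receptors, 8 were tested, 4 fell and none rose. Over all tested genes, 38% were called lower and 37.5% higher. By edgeR 0 of these JAK and STAT genes were higher also at an unadjusted p below 0.05, and by DESeq2 0 were called higher. Stat5a and Stat5b, which carry IL-15 signals, fell, Stat5a from 18.4 ± 1.94 to 11.9 ± 1.31 CPM, with log2 fold changes of -0.62 and -0.54 (adjusted p 0.000644 and 0.000355 by edgeR). The kinases Jak1 and Tyk2, used by the IL-10 receptor, had log2 fold changes of -0.40 (SE 0.07) and -0.28 (SE 0.06). Stat3, through which IL-10 acts, stood at 110 ± 0.991 and 113 ± 7.98 CPM and did not pass (log2 0.05, SE 0.06). Jak2 and Jak3, at -0.07 and -0.21, did not pass. With library totals both were called lower (-0.25 and -0.39), and 6 genes of the list were lower. Stat4, which IL-12 uses in lymphocytes, had at most 2 counts in a library. After the length and GC correction, Jak2 and Stat3 were called higher (0.24 and 0.25), Jak1 lost its call (-0.09) and Jak3 was called lower (-0.40), while Tyk2, Stat5a and Stat5b were still called lower.

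**Figure D4:**
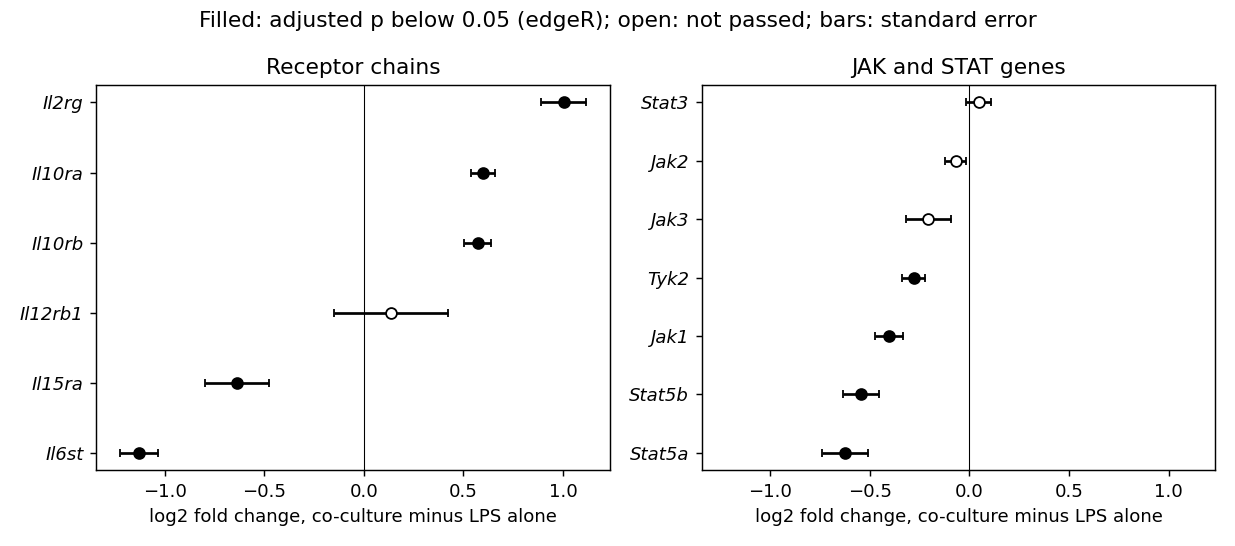
Log2 fold change with its standard error (x axes) for the tested receptor chains (left) and 7 JAK and STAT genes (right) with TMM scaling, filled where the adjusted p was below 0.05. Il2rg and both IL-10 receptor chains lie above 0 and Il6st and Il15ra below it, while none of the JAK and STAT genes drawn is called higher on this scale.

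Of 14 genes known to respond to IL-10 in macrophages, 12 were tested, 7 rose, 2 fell and 3 did not pass, where 37.5% of all tested genes were called higher and 38% lower. The median log2 fold change of the list was 0.91. Because the list was chosen with earlier results of these data known, an excess over those shares is no separate support. The length and GC correction left a median of 0.61, and 8 higher against 3 lower. Several of them also answer directly to LPS or cAMP, which these values cannot separate from IL-10. The phosphatase gene Dusp1 rose 3.49-fold (41.4 ± 1.8 to 145 ± 3.79 CPM), and the mRNA decay factor gene Zfp36 2.12-fold (170 ± 3.17 to 359 ± 10.2 CPM). Nfil3, a repressor that IL-10 induces and that acts on Il12b, rose 3-fold (from 16.0 to 17.6 CPM with LPS alone to 47.4 to 53.3 CPM), and Il1rn, the IL-1 receptor antagonist, 2.01-fold. Their adjusted p ranged from 3.1e-08 (Dusp1) to 8.96e-07 (Il1rn) in the edgeR test. The genes that fell, Etv3 (log2 -1.20), a transcriptional repressor, and Fcgr1 (-0.78), an Fc receptor that interferon also induces, are named after their values were seen.

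Of 22 regulators of Il10 transcription, 19 were tested, 8 were higher, 8 lower and 3 did not pass, shares near those of all tested genes (37.5% higher and 38% lower), with a median log2 fold change of 0.12, which was -0.05 with library totals. Maf, a factor that activates Il10 in macrophages and T cells, fell from 9.15 ± 0.554 to 3.59 ± 0.371 CPM (log2 -1.35, SE 0.12, adjusted p 5.92e-06 by edgeR). Sp1, which binds the Il10 promoter, fell from 128 ± 3.26 to 71.6 ± 3.45 CPM (log2 -0.83, or -0.27 after the length and GC correction). In contrast Crem, whose products bind cAMP response elements, rose 2.82-fold from 20.1 ± 0.105 to 56.6 ± 2.07 CPM (adjusted p 1.51e-07), as did Dusp1, which is counted in this list too.

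Of 22 regulators of the IL-12 and IL-27 subunit genes, 21 were tested. Of these, 14 rose, 1 fell and 6 did not pass, where 37.5% of all tested genes were called higher and 38% lower. The median log2 fold change of the list was 0.62. As the list was chosen with earlier results of these data known, an excess over those shares is no separate support. After the length and GC correction the median was 0.28, with 15 higher and 3 lower. Relb, an NF-kB subunit, rose 2.92-fold (11.9 ± 0.513 to 34.8 ± 5.56 CPM), and the AP-1 gene Fos 2.44-fold (24.5 ± 1.1 to 59.9 ± 5.4 CPM). The list also holds repressors, and some of them rose: Atf3, which restrains Il12b in LPS-treated macrophages, rose 2.69-fold (144 ± 4.25 to 387 ± 53.3 CPM), and Nfil3 is counted here as well. The gene that fell, Stat2 (log2 -0.68), carries type I interferon signals and is named after its values were seen. Without co-culture replicate 3, 3 members of the list were called lower.

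Other IL-10 family genes were almost absent. Of 8, 6 had no reads in any library (Il20, Il22, Il24, Il20ra, Il22ra1 and Il22ra2), and Il19 had 0, 3 and 1 counts with LPS alone and 5, 8 and 3 in co-culture. Il20rb, a receptor chain for IL-19, IL-20 and IL-24, was the 1 tested member, at 3.71, 3.19 and 2.76 against 4.73, 4.51 and 3.73 CPM (log2 0.44, SE 0.16, adjusted p 0.032 by edgeR). It lost that call with library totals (0.26), after the length and GC correction (0.27), and when replicate 2 or 3 with LPS alone, or replicate 1 or 2 in co-culture, was left out.

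Genes with the most similar profiles were ranked by Euclidean distance over the 6 libraries on log2 CPM, centred on the LPS mean, as a description with no test. Nearest to Il23a were BC049352 (distance 0.53, 1.70 ± 0.198 to 13.5 ± 3.02 CPM) and the chemokine gene Ccl22 (0.56, 74.6 ± 1.94 to 558 ± 87.1 CPM). Nearest to Il12b were Scube3 (0.56) and Insyn2b (0.65), which stood at 1.17 and 1.01 CPM in co-culture. With LPS alone they stood at 0.196 and 0.0913 CPM, near or below the floor. Il23a and Il12b had no gene as close as the other members had, whose nearest lay at 0.03 to 0.11. Both had few counts with LPS alone, and few tested genes rose as much. What sets these distances was not tested. For Il10 these were Zfp512 and the kinase gene Nlk, for Il10ra Tma7 and Gnl2, for Il10rb the cytokine gene Tnf and the urokinase receptor gene Plaur. For Il27 they were Slc35d2 and Stx5a, for Ebi3 Lst1 and Snrnp35, and for Il15 Chmp5 and Smyd3. As most genes differed between the groups, closeness chiefly means a like fold change.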

How the data were processed

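The members and gene lists were chosen with earlier results of these data known. The authors deposited whole-number read counts per gene, not normalized, and FPKM values, which equal the count per kilobase of the table's gene length for each 1000000 counted. Per the submitters' processing notes, reads were handled with HISAT2 2.0.5 and mm10. For the counting tool, its annotation and its strand setting, the sources used here state nothing. Per the labels' protocols, libraries were made from oligo(dT)-selected RNA with random priming. Positions come from GENCODE M21 (GRCm38) by identifier, since the table's own coordinates differ from it, and promoters from RefSeq. A row without values was not analysed here. The values of 1 listed gene are not reported here, though list counts include it.

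Counts were tested with edgeR 4.0.16 (R 4.3.3; quasi-likelihood, robust, TMM, default filter, group as the only term, checked on simulated data), with Benjamini-Hochberg adjustment over all 11103 genes tested. The simulated counts had few changed genes, balanced in direction, an equal spread in both groups and no length or GC trend. That check therefore cannot show how the test behaves in these data. Standard errors are the log2 fold change divided by the root of the F statistic. The biological coefficient of variation was 7.05%. Floors cover counting error only. Replicates were compared by chi-square over genes with at least 20 counts in a pair, and all differed beyond sampling noise. Deviations from the group means gave no sign that replicate numbers pair the libraries, which cannot show that the cultures were unpaired. Lists are described by counts, with no set test. Named genes are all members, receptors and JAK and STAT genes, up to 4 called genes by smallest p in each other list, and the 2 nearest profiles of each called member. Alternatives were RLE factors, library totals, DESeq2 1.42.0, limma 3.58.1 on log2(FPKM + 1) and log2(FPKM + 0.1), where the mean FPKM reached 1, no filter, a minimum of 10 counts per library, a block for replicate number, a correction for length and GC (splines with 5 degrees of freedom fitted to each library and used as offset), with and without that block, and leaving out each library.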

Additional observations from a re-analysis of the deposited data

How the results depend on the processing

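Il10, Il10ra, Il10rb, Il12b and Il23a kept their direction and their call in every alternative that could be fitted, with log2 fold changes of -0.74 to -0.27, 0.32 to 0.63, 0.36 to 0.62, 1.28 to 2.66 and 2.85 to 3.50. The 1.28 for Il12b came from log2(FPKM + 1), where the pseudocount exceeds its level with LPS alone. Il23a could not be fitted on FPKM, where its mean was below 1, and neither Il12b nor Il23a had 10 counts in every library. With the length and GC offset, alone and with the replicate block, Il27 reversed to -0.55 and -0.55 and Ebi3 to -0.24 and -0.23, and Il15 lost its call at 0.014 and 0.017. These changes came with that correction, which takes a length and GC trend out of every library. Whether the trend is technical or biological was not tested. Il15 also lost its call with library totals (0.18) and on FPKM with a pseudocount of 1 (0.14) or 0.1 (0.18). For Il15, leaving out 1 library gave 0.31 to 0.40. Of the 7 ligand and subunit genes, 5 were called higher and 1 lower, against 3 higher on FPKM (either pseudocount) and with at least 10 counts in every library, where fewer were fitted, and 2 higher and 3 lower with the offset (alone or with the block). JAK and STAT genes had 3 called higher with the offset (alone or with the block), and 0 to 1 when a library was left out (1 without co-culture replicate 1). They had 6 called lower with library totals and on FPKM with either pseudocount, against 4. Regulators of Il10 had 5 called lower on FPKM with either pseudocount. Regulators of the IL-12 and IL-27 genes had 3 called lower with library totals, on FPKM with either pseudocount and with the offset, 4 with block and offset, and 1 to 3 when a library was left out. Other IL-10 family genes had 0 called higher with library totals, DESeq2, FPKM and the offset, 2 with no filter and 0 to 1 when a library was left out. The cause of the moved counts was not tested. Calls over all genes were 4160 higher and 4222 lower, 3222 and 5184 with library totals, and 3810 to 4300 and 3924 to 4274 when a library was left out. Same-numbered libraries deviated from their group means with correlations of -0.04, -0.02 and 0.04, and not every library correlated best with its own number; the replicate block gave 4070 higher and 4147 lower and changed no call among the 8 tested members. The Il10 to Il10ra ratio kept its sign (-1.01 to -0.90), as did Il27 to Ebi3 (-0.38 to -0.16). Depth limits what can be said of Il12a, which had no reads, and of Il23a with LPS alone, at 5 to 8 counts.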
